A study of Mus musculus with 12 samples.

Results

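The comparison asked which RNAs differed in the left ventricle when miR-150 was overexpressed in mice that received vehicle and no catecholamine. It used 6 of the 12 mice of the series, 3 labelled GRK-beta1AR/miR150 (DTG, double transgenic) and 3 labelled GRK-beta1AR (TG). All 6 mice were C57BL/6J, all carried the GRK-beta1AR transgene, and the left ventricle of each was collected after 1 week of vehicle. The study describes that transgene as specific to cardiomyocytes. It encodes a mutant beta1-adrenergic receptor that lacks the sites phosphorylated by G protein-coupled receptor kinases, so that its signaling through beta-arrestin is impaired. The additional miR-150 transgene of the DTG mice is driven by a CAG promoter, which is active in most cell types. The DTG mice were 10 weeks old at harvest and the TG mice 9, 9 and 12 weeks old, and in each group replicate 1 was female and replicates 2 and 3 were male. A mouse without either transgene was not part of the comparison.

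A microRNA is a short RNA that pairs through its seed with target RNAs and lowers their stability or translation. MiR-150 is known as a regulator of lymphocyte development and, in the heart, has been linked to protection after injury. Circular RNAs (circRNAs) arise when a downstream splice site is joined back to an upstream one. They have no ends for an exonuclease to attack, and many are stable and abundant in heart muscle. Before labeling, the RNA was treated with RNase R, an exonuclease that digests linear RNA, so the probes for linear RNA on these arrays report what the digestion left and not the total amount of an mRNA. The arrays carried no probe for miR-150 itself, and the genotype of each mouse rests on its label. The 3p strand of miR-150, one product of the hairpin, is shown here because the reference used held only that strand. Its seed (bases 2 to 8) is in capitals. The other strand, with its own seed, is not shown, and which strand acted in these hearts was not tested. It comes from RefSeq, build GRCm38.p6, at chr7:45121798-45121819 on the plus strand.
mmu-miR-150-3p: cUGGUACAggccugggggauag

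Each array held 14236 circRNA probes, 50 linear RNA probes of which 44 matched a gene symbol, 14 circRNA control probes and 15 negative control probes. After the filter on dim probes, 12738 circRNA probes (89.5%) and 43 linear RNA probes were tested. Values are log2 signals minus the 75th percentile of that array's circRNA probes, and a difference is DTG minus TG on that scale. None of the 39 markers listed for cardiomyocytes, fibroblasts, endothelial cells, smooth muscle, immune cells and red cells had a linear RNA probe, so the labelled tissue was not checked against them. In whole ventricle, fewer cells of a type and less RNA per cell cannot be told apart.

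The 3 DTG arrays were alike, whereas TG 1 and TG 3 stood apart from them and from each other. The 75th percentile of the circRNA probes was 150, 136 and 171 intensity units on DTG 1, 2 and 3, and 129, 132 and 424 units on TG 1, 2 and 3. TG 3 was thus the brightest array, and without it the TG arrays lay below the DTG arrays (exact permutation test over all 6, two-sided p = 1.0, where 3 against 3 cannot go below 0.1). The share of circRNA spots well above background was 87.7%, 88.4% and 87.3% on the DTG arrays and 92.1%, 86.5% and 92.5% on the TG arrays (exact permutation p = 0.4). Among the negative control spots, which match no transcript, that share was 21.3%, 26.7% and 20.0% on the DTG arrays and 27.3%, 20.0% and 20.0% on the TG arrays (exact permutation p = 1.0). The circRNA control probes did not share the brightness of TG 3. Their median intensity was 469, 434 and 444 units on the DTG arrays and 455, 428 and 398 units on the TG arrays. Relative to the circRNA probes, 12 of the 14 control probes were therefore lowest on TG 3.

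**Figure D1:**
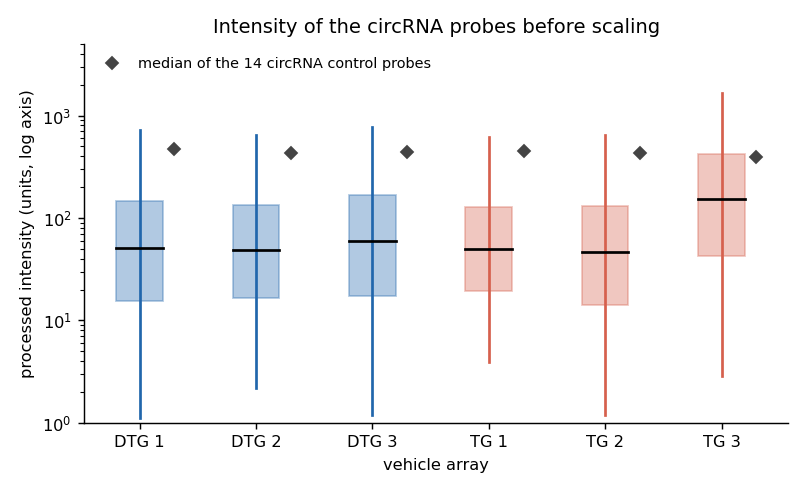
Processed intensity of the circRNA probes on the 6 vehicle arrays before scaling, on a log axis, without spots left out as outliers. Boxes run from the 25th to the 75th percentile with the median as a black line, vertical lines run from the 5th to the 95th percentile, and diamonds are the medians of the 14 circRNA control probes. The box of TG 3 lies above the other 5 while its diamond does not.

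After scaling, the median absolute difference between 2 arrays was 0.23 to 0.37 log2 among the DTG arrays and 0.48 to 1.14 among the TG arrays. TG 2 lay as close to the DTG arrays (0.20 to 0.27) as these lay to each other. Rank correlations over the 12651 circRNA probes with all 6 values, which share a common order of bright and dim probes, were 0.96 to 0.98 among the DTG arrays and 0.98 to 0.99 between TG 2 and the DTG arrays. They were 0.88 to 0.94 between TG 1 and the DTG arrays, 0.81 to 0.85 between TG 3 and the DTG arrays, and 0.68 between TG 1 and TG 3. The 2 TG arrays that stood apart therefore resembled the DTG arrays more than each other.

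The median standard deviation of a circRNA probe was 0.24 log2 over the DTG mice and 0.68 over the TG mice, and 87.3% of the probes had the larger standard deviation in TG. Without TG 3 the TG median was 0.34 and the share 64.8%. Without TG 1 they were 0.58 and 74.8%, and without TG 2 they were 0.81 and 82.9%.

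TG 1 and TG 3 left the DTG range in different directions. On TG 2, 61.1% of the probes lay within the range of the 3 DTG values, against 23.3% on TG 1 and 18.3% on TG 3. TG 1 was above all 3 DTG arrays at 5725 probes and below them at 3980, and TG 3 was above at 4768 and below at 5568. At 3272 probes TG 1 was above and TG 3 below, and at 2267 probes TG 1 was below and TG 3 above. Both were above at 1373 probes and both below at 1118. Opposite departures were thus more frequent than shared ones.

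The departures varied with signal level. In the dimmest of 5 equal bins of mean signal, the median of TG 1 minus the DTG mean was 0.75 log2, and in the brightest bin it was -0.14. For TG 3 the medians were -0.10 in the dimmest and -0.54 in the brightest bin, and for TG 2 they stayed between -0.018 and 0.016 in all 5 bins. The median DTG minus TG difference accordingly went from -0.21 in the dimmest bin to 0.19 in the brightest. Of the 753 circRNAs whose groups did not overlap, 125 lower and 36 higher in DTG fell in the dimmest bin, and 24 lower and 136 higher in the brightest.

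**Figure D2:**
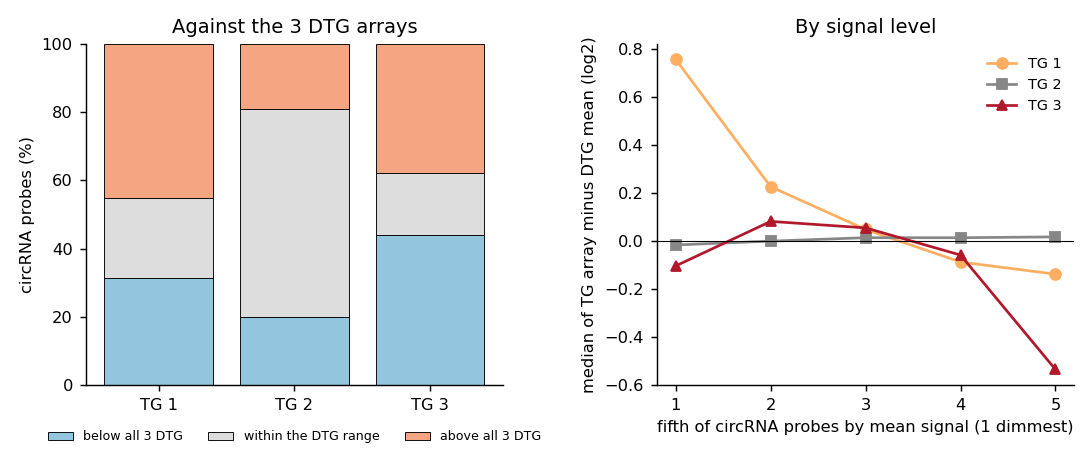
Left, share of the 12651 circRNA probes (%) at which each TG array lay below, within or above the range of the 3 DTG arrays; right, median of each TG array minus the DTG mean (log2) in 5 equal bins of mean signal. TG 2 stays near the DTG arrays, TG 1 is high at dim probes and TG 3 is low at bright ones.

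No circRNA passed the test between DTG and TG. At an adjusted p below 0.05, 0 of 12738 circRNA probes were called (0.0%) by limma with Benjamini-Hochberg adjustment over all 12781 circRNA and linear RNA probes, and the lowest adjusted p was 1.00. The methods' t-test also called 0. At an unadjusted p below 0.05, limma gave 111 circRNA probes (0.871%) and the methods' t-test 208. All 111 differed by at least 1.5-fold, with 27 higher in DTG (0.212%) and 84 lower (0.659%). That split depended on the scaling. It was 48 higher and 39 lower after quantile normalization, 37 and 65 after scaling to the median of the tested probes, 5 and 64 after scaling to the circRNA control probes, and 737 and 6 after a normexp background correction. The last 2 moved the median difference of all circRNA probes by -0.44 and 0.38 log2.

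Over all tested circRNAs the median difference was -0.031 log2 and the median absolute difference 0.25, against a median standard error of 0.42. A difference of at least 1.5-fold, without regard to its error, was seen at 793 circRNAs higher and 1088 lower in DTG, and one of at least 2-fold at 134 and 220. The groups did not overlap at 753 circRNAs (5.91%), 375 higher in DTG (2.94%) and 378 lower (2.97%). Among the 702 of these that were well above background on all 6 arrays, the median gap between the closest DTG and TG values was 0.081 log2, and 11 had a gap of at least 1.5-fold. Without TG 3 the number at an unadjusted p below 0.05 was 547 (220 higher and 280 lower by at least 1.5-fold), and without TG 2, the TG array most like DTG, it was 493 (156 and 337). Without TG 1 it was 162, of which 84 were higher and 78 lower, and without DTG 1 it was 24. DTG 3 carried a different scan date entry than the other 5 arrays. Within the scan of those 5, 65 circRNAs had an unadjusted limma p below 0.05 and 0 an adjusted one.

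**Figure D3:**
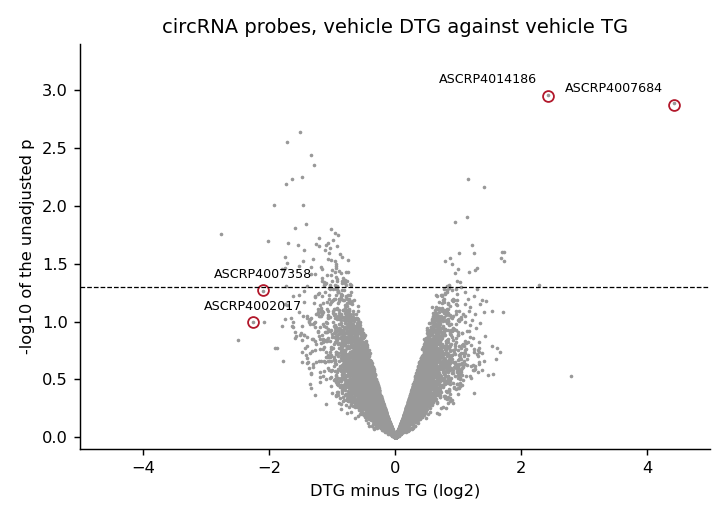
Difference between vehicle DTG and vehicle TG (log2, x axis) against -log10 of limma's unadjusted p (y axis) for the 12738 circRNA probes, each a grey point. The dashed line marks an unadjusted p of 0.05, and red circles mark the 2 probes with the highest and the 2 with the lowest difference among probes well above background on all 6 arrays whose groups did not overlap. None passed the adjusted limit.

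The files identify circRNA probes by the manufacturer's number only, so host genes and junctions were not analysed here. The 4 probes at the ends of the distribution, chosen by a rule of size among probes with groups that did not overlap, are described by those numbers. ASCRP4007684 had the highest difference. Its intensity was 2008, 1881 and 2357 units on DTG 1, 2 and 3, and 27.4, 52.6 and 1292 units on TG 1, 2 and 3. After scaling the DTG values were 3.75, 3.79 and 3.79 log2 and the TG values -2.23, -1.33 and 1.61. On that scale the DTG mice were thus nearly identical, TG 1 and TG 2 were far below them and TG 3 lay between. How far TG 3 lay below the DTG mice depended on the scaling, as the circRNA control probes did not share the brightness of TG 3. The value of TG 1 was below the highest negative control of that array (-1.59), while the other 5 values were above every negative control. The difference was 4.43 ± 0.89 log2 (SE, n = 3 per group), 21.5-fold higher in DTG, with an unadjusted limma p of 0.00134 and an adjusted p of 1.00. Without TG 3 it was 5.56 ± 0.31 with limma's adjusted p = 0.0145, and this was the 1 circRNA that passed there.

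ASCRP4014186 was the other probe on the high side. Its intensity was 446, 384 and 363 units on the DTG arrays and 72.7, 33.1 and 346 units on the TG arrays. The scaled DTG values were 1.58, 1.498 and 1.09 log2 and the TG values -0.83, -2.00 and -0.29, so all 3 TG mice were lower on this scale. For TG 3 the distance from the DTG mice depended on the scaling. Its intensity (346 units) was close to that of DTG 3 (363 units), and the circRNA control probes did not share the brightness of TG 3. The difference was 2.43 ± 0.47 log2 (SE, n = 3 per group), 5.38-fold, with limma's unadjusted p = 0.00112, the lowest of all circRNAs, and adjusted p = 1.00. All 6 values were above every negative control of their array.

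On the low side, both probes had their highest value on TG 3. ASCRP4002017 had values of -4.35, -3.47 and -3.93 log2 on the DTG arrays and of -3.11, -3.38 and 1.54 on the TG arrays. TG 2 was only slightly above the highest DTG value, and TG 3 was far above all others. All but TG 3 were below the highest negative control of their array, which lay between -3.39 and -1.59 over the 6 arrays, so the order of the other 5 values was within the range of probes that match no transcript. The difference of -2.26 ± 1.21 log2 became -0.67 ± 0.31 without TG 3. ASCRP4007358 had DTG values of -3.63, -2.90 and -3.05 log2 and TG values of -1.54, -2.87 and 1.13, again with TG 2 next to the DTG values and TG 3 highest. Here TG 1 also lay above all DTG values, between TG 2 and TG 3. DTG 1, DTG 2 and TG 2 were below the highest negative control of their array. Its difference of -2.10 ± 0.92 log2 became -0.99 ± 0.44 without TG 3 (limma's adjusted p = 1.00 with all 6 arrays for both probes).

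These 4 probes can be set against the isoproterenol-treated (ISO) mice of the same genotypes, which the choice of probes did not use. For ASCRP4007684 the ISO DTG values were 4.14, 4.09 and 4.29 log2, close to the vehicle DTG values, while ISO TG 1, 2 and 3 were at 4.54, 4.74 and -2.36 (exact permutation p = 1.0). The low level of vehicle TG 1 and TG 2 thus recurred on ISO TG 3 alone. For ASCRP4002017 the ISO TG values were 0.01, 0.72 and -3.18 log2, with ISO TG 3 near vehicle TG 1 and TG 2 and the other two near vehicle TG 3. ASCRP4014186 was low on ISO TG 3 too (-2.19, against 2.18 and 2.52 on ISO TG 1 and 2), and ASCRP4007358 was at 0.14, 0.34 and -2.47 on the ISO TG arrays. The ISO DTG minus TG difference was 1.87 log2 for ASCRP4007684 and 0.59 for ASCRP4014186. It was -2.41 for ASCRP4002017 (exact permutation p = 0.2) and -2.25 for ASCRP4007358 (exact permutation p = 0.1, the lowest possible here). All 4 thus kept their vehicle direction. At ASCRP4007684 and ASCRP4014186 this rested on ISO TG 3, as ISO TG 1 and 2 lay above all ISO DTG values. The difference between the genotype effects under ISO and under vehicle was not past the limit at any of the 4 (limma on 12 arrays, adjusted p = 0.740 to 0.983).

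**Figure D4:**
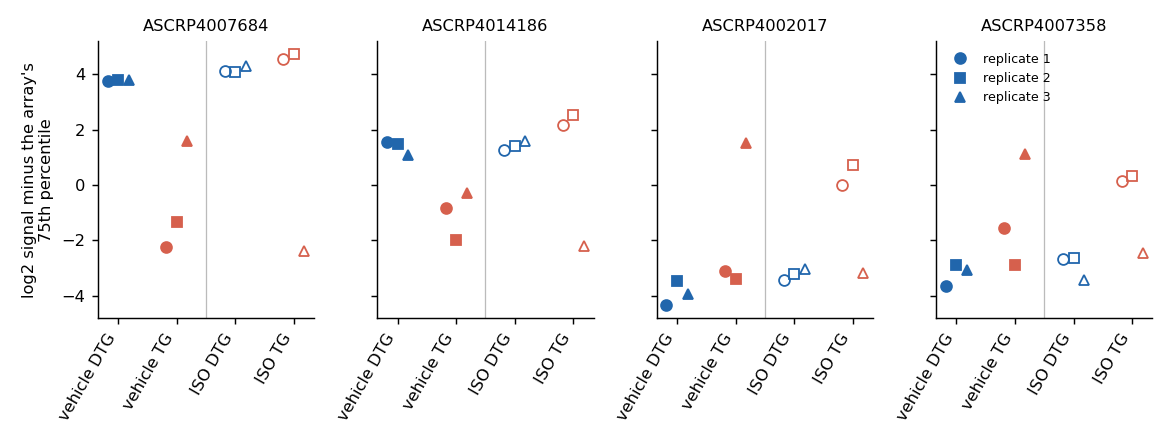
Scaled signal (log2 minus the array's 75th percentile) of 4 circRNA probes in each mouse of the vehicle groups (filled) and the ISO groups (open), DTG in blue and TG in red, with the replicate number as the symbol. In ISO TG, replicate 3 lies away from replicates 1 and 2 in all 4 panels. In vehicle TG it does so for the other probes, whereas for ASCRP4014186 replicate 3 (-0.29) lies closer to replicate 1 (-0.83) than replicate 2 (-2.00) does.

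This crosswise placement of the TG 3 arrays of both treatments was tallied over more probes, as a description. Of the 185 circRNA probes at which the means of TG 1 and 2 under vehicle and under ISO lay at least 4-fold apart, vehicle TG 3 was nearer the ISO mean at 105 (56.8%), ISO TG 3 was nearer the vehicle mean at 167 (90.3%), and both held at 99 (53.5%). Over all 12657 tested circRNAs with the values needed, these shares were 41.3%, 70.3% and 26.6%. At the 1853 of them at least 2-fold apart they were 47.3%, 88.2% and 41.9%. In both of these sets vehicle TG 3 was thus nearer the vehicle mean, its own labelled group, at most probes. Across all circRNAs the rank correlations of vehicle TG 3 were 0.70, 0.77 and 0.78 with ISO TG 1, 2 and 3, and 0.68 and 0.83 with vehicle TG 1 and 2. ISO TG 3 had 0.94 and 0.97 with vehicle TG 1 and 2, and 0.90 and 0.92 with ISO TG 1 and 2. The groups were kept as labelled, and whether a label is at fault was not tested.

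Of the 43 linear RNA probes tested, 14 were higher and 29 lower in DTG, none at an unadjusted p below 0.05 (0.0%), and at none did the groups separate. The methods' t-test also gave 0, and the lowest limma p was 0.0532. The median difference was -0.19 log2, against a median standard error of 0.46. The standard deviation was larger in TG than in DTG at 36 of the 43, and TG 3 lay outside the range of the other 5 arrays at 33, TG 1 at 23 and TG 2 at 9. The 21 genes described below come from those above every negative control probe on all 6 arrays, together with the 3 highest and 3 lowest differences. Of them 9 were higher and 12 lower in DTG, and limma's adjusted p was 1.00 for each.

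Of the 18 genes listed for mitochondrial fatty acid oxidation, 2 had a probe, and neither passed the test. Acaa2, the thiolase of the last step of the cycle, was at 1.74, 1.21 and 1.95 log2 in DTG and at 0.75, 1.83 and -0.31 in TG. TG 2 was within the DTG values, and TG 1 and TG 3 were below them. In intensity TG 3 (342 units) was above DTG 2 (315 units), so its place below all DTG values appeared only after scaling. The difference was 0.87 ± 0.55 (SE, n = 3 per group). It was 0.34 without TG 3 and 0.44 when scaled to the circRNA control probes. Cpt1a, which loads long-chain fatty acids onto carnitine for entry into mitochondria, was at 0.01, -0.17 and 0.22 in DTG and at -0.51, -0.66 and 0.45 in TG, so TG 1 and TG 2 were below DTG and TG 3 was the highest of the 6. Its difference was 0.26 ± 0.39, it was 0.60 without TG 3 (limma's adjusted p = 0.665), and it turned to -0.18 when scaled to the circRNA control probes.

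Ppara, a nuclear receptor that drives genes of fatty acid oxidation, was at 1.63, 2.18 and 1.62 log2 in DTG and at 2.24, 2.26 and -0.44 in TG. TG 1 and TG 2 were above all DTG values and TG 3 far below, so the difference of 0.46 ± 0.72 became -0.44 without TG 3. Pex11a, a peroxisome membrane protein that promotes peroxisome division, was at 1.41, 1.65 and 1.24 in DTG and at 1.21, 1.41 and 0.09 in TG. Its difference of 0.53 ± 0.42 was 0.13 without TG 3. In intensity Pex11a was highest on TG 3 (451 units), so its low value there appeared only after scaling, whereas Ppara was lowest on TG 3 in intensity too (312 units). When scaled to the circRNA control probes the difference was 0.094 for Pex11a and 0.020 for Ppara.

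The lowest differences were those of Lhfp, Apoe and Uhrf1bp1l. Lhfp, a membrane protein of the tetraspan family, was at 0.89, 1.42 and 1.096 log2 in DTG and at 1.24, 2.74 and 4.22 in TG. TG 1 lay within the DTG values, and TG 2 and TG 3 were above them. The difference was -1.60 ± 0.70, 3.03-fold lower in DTG, with an unadjusted limma p of 0.0532 and an adjusted p of 1.00. It was -0.85 without TG 3. Apoe, the apolipoprotein that carries lipid between cells and the only member with a probe among 12 genes listed for lipid transport, was at 2.08, 2.36 and 1.96 in DTG and at 2.52, 2.25 and 4.81 in TG. In intensity, TG 3 stood at 11855 units and the other 5 arrays between 628 and 738. The difference of -1.06 ± 0.66 was -0.25 without TG 3. Uhrf1bp1l was at -2.97, -2.56 and -2.45 in DTG and at -2.68, -2.27 and -0.13 in TG, again with TG 3 alone apart, and its difference of -0.97 ± 0.65 was -0.19 without TG 3 and turned to 0.069 after a normexp background correction. This probe was below the highest negative control on 3 of the 6 arrays.

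Actb, which encodes the cytoskeletal beta-actin and shares sequence with other actins and pseudogenes, was spread over the TG mice on both sides of DTG. It was at 2.75, 2.18 and 2.97 log2 in DTG and at 1.498, 2.48 and 4.53 in TG, so the TG mice held both the lowest and the highest value. The difference of -0.20 ± 0.73 became 0.64 without TG 3. Apoe, Actb, Acaa2 and Ppara, singled out after their values were seen, repeated the crosswise placement of the circRNA probes. ISO TG 1, 2 and 3 were at 4.90, 4.97 and 2.48 for Apoe, at 3.33, 3.64 and 1.59 for Actb, at -0.97, -1.14 and 1.49 for Acaa2, and at 0.02, 0.17 and 1.96 for Ppara. At each of these 4 genes ISO TG 3 lay next to vehicle TG 1 or TG 2, and vehicle TG 3 lay toward ISO TG 1 and 2. Over all 21 named genes, vehicle TG 3 was nearer the mean of ISO TG 1 and 2 at 11, ISO TG 3 nearer the mean of vehicle TG 1 and 2 at 17, and both held at 9. Over all 43 tested linear RNA probes these counts were 19, 29 and 13.

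**Figure D5:**
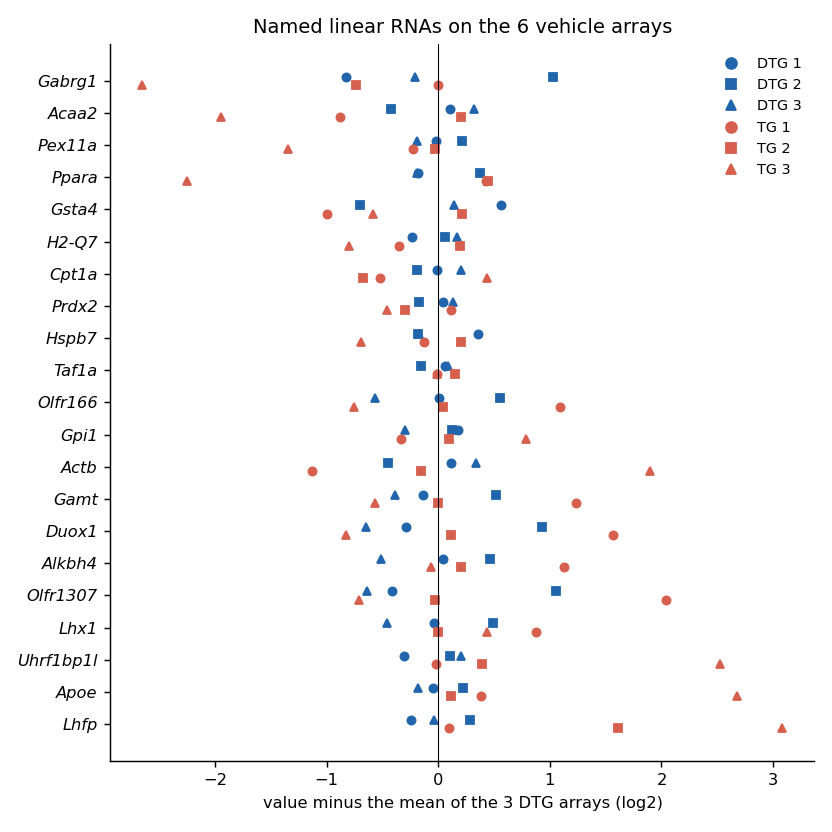
Values of the 21 named linear RNAs on each vehicle array minus the mean of the 3 DTG arrays (log2, x axis), DTG in blue and TG in red, with the replicate number as the symbol, ordered by the DTG minus TG difference. TG 3 (red triangle) is outside the other 5 arrays at 17 genes and TG 1 (red circle) at 9.

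Of the 19 genes listed for antioxidant enzymes, 2 had a probe, and each differed by less than its standard error. Gsta4, a glutathione transferase that detoxifies lipid peroxidation products, was at 0.31, -0.95 and -0.11 log2 in DTG and at -1.25, -0.04 and -0.83 in TG, with overlapping groups and a difference of 0.45 ± 0.47. Prdx2, a peroxiredoxin that reduces hydrogen peroxide, was at -0.18, -0.40 and -0.10 in DTG and at -0.11, -0.52 and -0.68 in TG. Its difference was 0.21 ± 0.31 and turned to -0.22 when scaled to the circRNA control probes. None of the 20 transcripts that the study followed by PCR had a linear RNA probe here.

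A heat shock protein, an MHC molecule and genes of basic metabolism differed by less than their standard errors. Hspb7, a small heat shock protein of heart muscle, was at 5.44, 4.90 and 4.91 log2 in DTG and at 4.96, 5.29 and 4.39 in TG, with a difference of 0.21 ± 0.36 that was -0.051 after quantile normalization, -0.23 when scaled to the circRNA control probes, -0.16 after normexp and -0.039 without TG 3. H2-Q7, an MHC class I molecule with near-identical paralogs, was at 3.94, 4.23 and 4.34 in DTG and at 3.82, 4.36 and 3.37 in TG. Its difference was 0.32 ± 0.36, and it turned to -0.12 when scaled to the circRNA control probes and to -0.056 after normexp. Gpi1, the glycolytic enzyme glucose-6-phosphate isomerase, differed by -0.19 ± 0.38 (0.12 without TG 3), Gamt, which makes creatine, by -0.22 ± 0.52, and Taf1a, a subunit of the RNA polymerase I initiation factor, by -0.044 ± 0.29 (0.46 after normexp). Of these, Taf1a also had the narrowest values, between -1.73 and -1.43 over all 6 mice.

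A further set, picked after its values were seen, had its highest scaled value on TG 1 and its lowest on TG 3 or DTG 3. Olfr1307, an olfactory receptor of a large gene family, was at -0.83, 0.63 and -1.06 log2 in DTG and at 1.62, -0.45 and -1.13 in TG. Duox1, which produces hydrogen peroxide, was at -1.53, -0.31 and -1.89 in DTG and at 0.32, -1.12 and -2.07 in TG. In both genes DTG 2 was the highest DTG mouse and TG 1 the highest TG mouse, and after scaling the same held for Olfr166, Gamt, Alkbh4 and Lhx1. The place of TG 3 depended on the scaling. In intensity DTG 3 was the lowest array at each of the 6 genes. TG 3 was the highest for Alkbh4 (74.6 units, against 52.0 on TG 1) and Lhx1 (692 units, against 285 on TG 1). The differences in this set lay between -0.44 ± 0.39 for Lhx1, a homeobox transcription factor, and -0.13 ± 0.53 for Olfr166, but after normexp Duox1 was at 0.18 and Alkbh4 at 0.53. Their direction rested on TG 1 at 4 of the 6 genes. Without that array the difference was 0.37 for Olfr1307, 0.36 for Duox1, 0.36 for Olfr166 and 0.28 for Gamt, and it was -0.070 for Alkbh4 and -0.22 for Lhx1. With the scan date entry as a block, or without DTG 3, Olfr166 was at 0.16 and Duox1 at 0.039.

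Gabrg1, a subunit of the GABA-A receptor, had the highest difference of the linear RNAs, 1.13 ± 0.75 log2, on a dim probe that was well above background on 2 of 3 DTG and 1 of 3 TG arrays. It was at -5.22, -3.36 and -4.60 in DTG and at -4.40, -5.13 and -7.04 in TG. All 6 values were below the highest negative control of their array, and the difference was 0.37 without TG 3. The remaining 22 tested linear RNA probes had differences between -0.89 and 0.34, with a lowest unadjusted limma p of 0.0736.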

How the data were processed

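Left ventricular RNA of 6 mice was analysed, 1 Arraystar mouse circRNA array per mouse, with groups, sex and age from the labels. After RNase R treatment and Cy3 labeling, the authors deposited spot intensity values from Agilent Feature Extraction 11.0.1.1, background-corrected and not normalized between arrays. The submitters' processing notes also name limma.

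Here log2 intensity was set relative to the 75th percentile of an array's circRNA spots. Outlier spots were left out, so the fits of 87 tested circRNAs used fewer arrays, and the 10 spots of a linear RNA probe were averaged. A probe was tested if it was well above background (in 0.5 or more of its spots) on 3 or more of the 6 arrays. Models were fitted with limma 3.58.1 (lmFit, eBayes, prior of 3.49 degrees of freedom) in R 4.3.3 and tested on simulated data, with Benjamini-Hochberg adjustment over all probes. Permutation tests used scipy 1.17.1. Accessions of linear RNA probes were matched without versions to RefSeq (GRCm38.p6) for symbols only, because the file headers name mm9. No spot was saturated. The number of arrays and the signal over background limit the precision. The p-values rest on the spread between arrays, in which differences between mice and technical differences between arrays cannot be told apart.

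Genes were named if their linear probe exceeded every negative control on all 6 arrays or had one of the 3 highest or lowest differences, and 1 such gene is not reported here. Of the circRNA probes above background on all arrays with groups that did not overlap, the 2 highest and 2 lowest differences were named. The members, gene lists and tests were chosen with earlier results of these data known. Alternatives changed the scaling, background correction (normexp on the median signal, as the mean signal was not used here, with an offset of 50), filters, covariates, weights, variance prior, test, fold limit and the arrays included.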

Additional observations from a re-analysis of the deposited data

How the results depend on the processing

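The adjusted count of circRNAs stayed at 0 under every scaling, background, filter and block tried, and was 1 with age as a term, 2 with array weights and between 0 and 1 when single arrays were left out. The call with age and the call without TG 3 were the same circRNA probe, ASCRP4007684 (adjusted p = 0.0417 with age and 0.000632 with array weights), and the second call with array weights was ASCRP4014186 (adjusted p = 0.00804). Array weights were 5.73, 1.12 and 1.52 for DTG 1, 2 and 3 and 0.383, 2.61 and 0.102 for TG 1, 2 and 3. Within the groups, age varied only between TG 3 (12 weeks) and TG 1 and 2 (9 weeks). An effect of age and an effect of the array TG 3 therefore cannot be told apart. Fitting age, giving TG 3 the lowest weight and leaving it out all act on that array, so these calls are not separate evidence. The count at an unadjusted p below 0.05 was 69 with control probe scaling, 743 with normexp, 277 with all 12 arrays, 65 with the scan date block, 60 with sex, 1413 with age, 664 with array weights, 208 with the methods' t-test, and 24 to 547 when single arrays were left out, lowest without DTG 1 and highest without TG 3. The count higher in DTG was 48 with quantile normalization, 5 with control probe scaling, 737 with normexp, 70 with 12 arrays, 15 with sex, 600 with age, 209 with array weights, 17 at the 2-fold limit and 7 to 220 in the leave-outs. The count lower in DTG was 39 with quantile normalization, 6 with normexp, 53 with detection on all 6 arrays, 200 with 12 arrays, 30 with the scan date block, 45 with sex, 525 with age, 274 with array weights, 52 with a variance trend and robust prior, 55 with the t-test, 50 at the 2-fold limit and 17 to 337 in the leave-outs. Non-overlapping circRNAs numbered 995 to 2762 in the leave-outs, where fewer values have to separate. The linear RNA count was 1 with quantile normalization, 5 with normexp, 1 with detection on all 6 arrays, 2 with 12 arrays, 1 with sex, 7 with age, 3 with array weights and 0 to 5 in the leave-outs. The cause of these shifts was not tested.

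The replicate number as a block gave 0 adjusted circRNA calls, 94 at an unadjusted p below 0.05, 31 higher and 63 lower, and 1 linear RNA, Lhfp (adjusted p = 1.00), named here after its value was seen. Deviations of arrays with the same number correlated at -0.36, -0.24 and 0.29, and not every array correlated best with its own number. Mice with the same number were also of the same sex. Whether they were paired in any other way was not tested, and the main fit did not pair them.

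Of 521 alternative values for single genes and probes, 462 kept their direction and their side of an unadjusted p of 0.05, 27 moved past it and 32 changed sign. The sign changes (log2) were, with control probe scaling, Prdx2 -0.22, H2-Q7 -0.12, Hspb7 -0.23 and Cpt1a -0.18, and with normexp Alkbh4 0.53, H2-Q7 -0.056, Hspb7 -0.16, Duox1 0.18, Taf1a 0.46 and Uhrf1bp1l 0.069. With array weights they were Actb 0.29, H2-Q7 -0.21, Ppara -0.47 and Gpi1 0.015, with the scan date block Olfr166 0.16 and Duox1 0.039, with quantile normalization Hspb7 -0.051 and Taf1a 0.029, and with scaling to the median of the tested probes Taf1a 0.0061. When single arrays were left out, Actb ranged from -0.87 to 0.64, Duox1 from -0.84 to 0.36, Gamt from -0.62 to 0.28, Gpi1 from -0.44 to 0.12, Hspb7 from -0.039 to 0.41, Olfr1307 from -1.004 to 0.37, Olfr166 from -0.57 to 0.36, Ppara from -0.44 to 0.91 and Taf1a from -0.089 to 0.033. The sign changed without TG 1 for Duox1, Gamt, Olfr1307 and Olfr166, without TG 3 for Actb, Gpi1, Hspb7 and Ppara, without DTG 2 for Actb and Taf1a, without TG 2 for Taf1a, and without DTG 3 for Duox1 and Olfr166.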
